A study of Mus musculus with 4 samples.

Results

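The Ifitm genes encode small interferon-induced transmembrane proteins that carry a CD225 domain and sit in cellular membranes. The 5 genes described here are those of the cluster on mouse chromosome 7, namely Ifitm1, Ifitm2, Ifitm3, Ifitm5 and Ifitm6. They were chosen by symbol, from rows of the expression table whose annotation gives exactly 1 of these symbols, and by having been proposed after the genotype difference of Ifitm3 in these data was known. The 5 genes are 5 of 19946 genes with an annotated probe set, and 8 of the 35557 probe sets in the table were annotated to 1 of them. A gene with more than 1 probe set is represented by that of highest mean signal, and the others are given beside it. Since the rule rests on the difference between the genotypes, the differences of the members are described below with their errors and without a p-value. Whether limma called a member is given as a description only.

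Alveolar macrophages (AM), the resident phagocytes of the airspaces, were recovered by lavage from untreated TREM2-/- and WT mice. TREM2-/- mice lack the gene of TREM-2, a receptor of macrophages and other myeloid cells, in all cells of the body, and had been backcrossed 10 times to C57/Blk6. WT mice were C57/Blk6 animals obtained from a breeder, so that the genotypes were not described as littermates, and mice of both genotypes were 8 to 10 weeks old. RNA was hybridized to 2 Affymetrix gene arrays per genotype, each with RNA of pooled mice. The question of the comparison was which transcripts differ between resting AM with and without TREM-2.

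Values are log2 expression after the robust multi-array average (RMA), which equalizes the distributions of the arrays, so that 1 unit is a doubling of signal. A log2 fold change is TREM2-/- minus WT throughout. RMA values of different probe sets are not on a common scale per molecule, and levels were therefore not compared between genes. The correlation of all values was 0.995 between the TREM2-/- arrays, 0.994 between the WT arrays and 0.992 to 0.993 between genotypes. The lower quartile of the arrays lay between 4.39 and 4.40, and a signal below the lowest of them is called low here, since detection calls were not used. Trem2, the targeted gene, was at 7.64 and 7.45 in TREM2-/- AM, against 9.58 and 9.74 in WT AM (log2 fold change −2.11, adjusted p = 0.0009 from limma). Both TREM2-/- arrays thus lay below both WT arrays, in the direction of their labels, although which exons its probe set reads is not known here. The 2 arrays of a genotype are named as biological duplicates, but how the pools were separated is not given, so p-values measure the spread between these arrays, part of which may be technical.

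Type I and type II interferons induce Ifitm1, Ifitm2 and Ifitm3 in many cells. IFITM3 resides mainly in late endosomes and lysosomes, where it hinders the fusion of enveloped viruses such as influenza virus with the host membrane, and mice without Ifitm3 suffer severe influenza. IFITM1 is found more at the cell surface. IFITM2 is a close relative of IFITM3 in the endosomal system. IFITM5 is a protein of osteoblasts, where it takes part in mineralization, and is not induced by interferon. Interferon acts on its target genes through STAT and IRF proteins, which bind an interferon-stimulated response element, with a GAAA repeat at its core (GAAA, 2 bases of any kind, GAAA), or a gamma-activated site, TTCNNNGAA.

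The start regions of Ifitm3 and Ifitm2 are shown because both held the GAAA repeat, in different number and place. The sequences are those of RefSeq (build GRCm38.p6), both on the minus strand, with the 29 bases of Ifitm3 at chr7:141010714-141010742, which begin at position 3 counted from the annotated transcript start, and those of Ifitm2 at chr7:140955979-140956007, which begin at position −46. Capitals mark the GAAA repeats.
Ifitm3: GAAAAGGAAActtctgaGAAACCGAAAct
Ifitm2: GAAAAGGAAAttgctagagaaagggcggg
Both stretches opened with the same 10 bases, GAAAAGGAAA, and set side by side they differed at 13 of 29 bases, all after these 10. Only the Ifitm3 stretch held a further repeat, GAAACCGAAA. Both repeats of Ifitm3 lie after the annotated start and so within the transcript, whereas that of Ifitm2 lies before it.

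Windows of 300 bases, from 250 before to 50 after the annotated start, were searched on both strands for the GAAA repeat, for the longer form in which CT follows it, which contains the shorter one, and for TTCNNNGAA. Ifitm3 had 2 GAAA repeats, both of them followed by CT, and 1 match to TTCNNNGAA, at positions 14 to 22, which shares bases with both longer forms. Ifitm2 had 1 GAAA repeat and no match to the other motifs. Ifitm6 had 1 match to TTCNNNGAA, at positions −10 to −2, and Ifitm1 and Ifitm5 had no match to any of the 3 motifs. Of 32851 windows in the table, the GAAA repeat was present in 3.44%, the form followed by CT in 0.271% and TTCNNNGAA in 8.3%. Of the 19 interferon-stimulated genes of the list used below that had a window, 9 held the GAAA repeat and 5 the form followed by CT, beside 5 with TTCNNNGAA. A match is a description of these letters only, and binding was not measured.

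Ifitm3 was the member with a large difference between the genotypes. Its log2 expression was 7.14 and 7.51 in TREM2-/- AM, against 5.41 and 4.73 in WT AM. Both TREM2-/- arrays lay above both WT arrays, and the lower TREM2-/- array was above the higher WT array by more than the arrays of either genotype differed from each other. The means were 7.33 ± 0.27 in TREM2-/- AM and 5.07 ± 0.49 in WT AM (SD, n = 2 each), a log2 fold change of 2.26 (standard error 0.23, 95% interval 1.69 to 2.82). On the linear scale this is 4.78-fold higher signal in TREM2-/- AM (95% interval 3.22 to 7.09). Ranked by log2 fold change, Ifitm3 stood at place 6 from the highest of 19946 genes.

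Ifitm3 also varied more within a genotype than nearly all other genes. Its arrays were 0.38 apart in TREM2-/- AM and 0.69 apart in WT AM, while the median gap over all genes was 0.09 for either genotype. Its pooled SD of 0.39 was larger than that of 99.8% of genes. Without TREM2-/- replicate 1 the log2 fold change was 2.44 and without TREM2-/- replicate 2 it was 2.07, and in neither fit did Ifitm3 pass the threshold of limma. It passed without WT replicate 1 (2.60) and without WT replicate 2 (1.91).

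**Figure D1:**
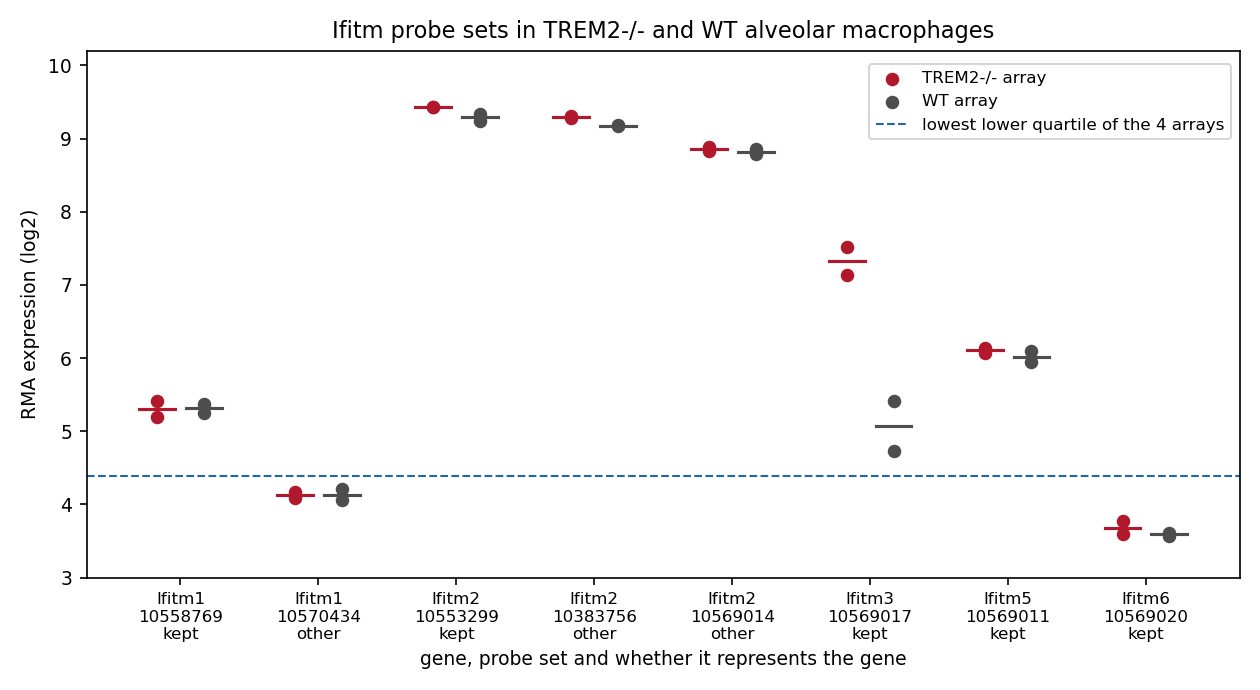
RMA expression (log2) of the 8 probe sets annotated to the Ifitm genes on each of the 4 arrays, with TREM2-/- arrays in red, WT arrays in grey and a bar at the mean of each genotype. The points of Ifitm3 lie at 7.14 and 7.51 in TREM2-/- AM and at 5.41 and 4.73 in WT AM, and those of the other probe sets lie close together. The dashed line at 4.39 is the lowest lower quartile of the arrays.

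Ifitm2 had a small difference. Its log2 expression was 9.43 and 9.44 in TREM2-/- AM, against 9.34 and 9.24 in WT AM, a log2 fold change of 0.14 (standard error 0.08, 95% interval −0.04 to 0.33) or a 1.11-fold signal. The arrays of the genotypes did not overlap, yet the interval included 0. Ifitm2 had a further pair of probe sets. On 10383756 it was at 9.30 and 9.28 in TREM2-/- AM, against 9.18 and 9.17 in WT AM, and again the arrays did not overlap. On 10569014 it was at 8.83 and 8.89 in TREM2-/- AM, against 8.85 and 8.79 in WT AM, and the arrays overlapped. The log2 fold changes of these 2 sets were 0.11 and 0.04. In the order of probe set numbers only 10569014 stands within the cluster, between the sets of Ifitm5 and Ifitm3, whereas 10553299, the one kept, stands between those of Gtf2h1 and Ldha on chromosome 7 and 10383756 between those of Smtn and Tug1 on chromosome 11. Which copies of the gene each set reads was not tested.

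Ifitm1 differed least. It was at 5.19 and 5.41 in TREM2-/- AM, against 5.26 and 5.37 in WT AM, and the WT arrays lay between the TREM2-/- arrays. The log2 fold change was −0.01 (standard error 0.10, 95% interval −0.25 to 0.23). Its other probe set, 10570434, had low signal on all arrays, at 4.16 and 4.08 in TREM2-/- AM and at 4.06 and 4.20 in WT AM.

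Ifitm5, the bone member, was at 6.07 and 6.14 in TREM2-/- AM, against 5.95 and 6.09 in WT AM. The arrays overlapped, and the log2 fold change was 0.09 (standard error 0.08, 95% interval −0.12 to 0.29). Of 4 measured osteoblast markers (Ibsp, Sp7, Dmp1 and Alpl), limma called 0, with 0 at an unadjusted p below 0.05, 0 by SAM and 0 with an intensity trend and robust variance. Ibsp was low in both genotypes.

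Ifitm6 had low signal on every array, at 3.78 and 3.59 in TREM2-/- AM, against 3.61 and 3.57 in WT AM. The log2 fold change was 0.09 (standard error 0.09, 95% interval −0.12 to 0.31), and 1 of the TREM2-/- arrays lay between the WT arrays.

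By limma, 1 of the 5 members was called higher in TREM2-/- AM and 0 were called lower. Over all genes, 0.431% were called higher and 0.135% lower, 0.567% in either direction. Because Ifitm3 was known to differ when the family was chosen, nothing is read from this count. The arrays of the genotypes did not overlap for 2 of the 5 members, Ifitm3 and Ifitm2, both higher in TREM2-/- AM. Over all genes they did not overlap for 42.8%, with 17.4% higher and 25.4% lower, so that this criterion is met by many genes with 2 arrays a genotype.

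The difference of Ifitm3 was also taken within each array against the other members, which removes any factor common to an array. Ifitm3 minus Ifitm2 was −2.29 and −1.92 in TREM2-/- AM, against −3.93 and −4.51 in WT AM, and the genotypes differed by 2.11. Set against Ifitm1, Ifitm5 and Ifitm6 in the same way, the genotypes differed by 2.27, 2.17 and 2.16. Each of these values equals the log2 fold change of Ifitm3 minus that of the other member. Since the other members had small fold changes, the 4 differences had to be of like size and give no further support.

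The genes around the cluster were then examined in RefSeq order. The 5 genes on each side and the 2 genes between members (Gm7514, a pseudogene, and Gm33504, a long non-coding RNA) made 12, of which 7 were measured. By limma 0 of the 7 were called, with 1 at an unadjusted p below 0.05, 0 by SAM and 0 with an intensity trend and robust variance. On the near side of Ifitm5, the log2 fold change was 0.08 for Pgghg, a glucosidase, 0.03 for Nlrp6, a NOD-like receptor, and −0.14 for Cox8b, a subunit of cytochrome c oxidase. On the side of Ifitm6 it was −0.21 for B4galnt4, a glycosyltransferase, 0.04 for Pkp3, a plakophilin of desmosomes, and −0.05 for Sigirr, an inhibitory member of the interleukin-1 receptor family. Ano9, an anoctamin, was at 4.62 and 4.55 in TREM2-/- AM, against 4.74 and 4.87 in WT AM, with a log2 fold change of −0.22 (adjusted p = 0.398 from limma). It was the one with an unadjusted p below 0.05. The arrays did not overlap for 3 of the 7, Cox8b, B4galnt4 and Ano9, each with the TREM2-/- arrays lower, beside 25.4% of all genes in that direction.

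**Figure D2:**
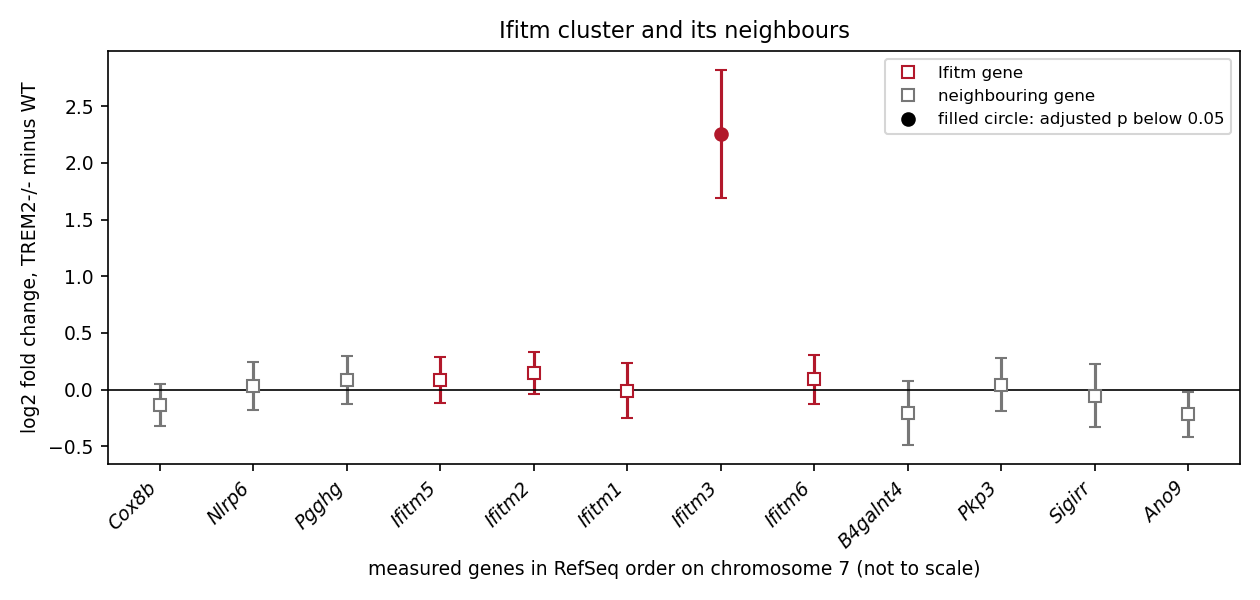
Log2 fold change (TREM2-/- minus WT, with the 95% interval of limma as bars) of the 5 Ifitm genes in red and of 7 measured neighbours in grey, in RefSeq order on chromosome 7 and not to scale. Ifitm3 stands at 2.26, and the neighbours lie between −0.22 and 0.08.

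The other genes with a CD225 domain lie outside the cluster, and 7 of 9 listed were measured. By limma 0 were called, with 1 at an unadjusted p below 0.05, 0 by SAM and 0 with an intensity trend and robust variance, and their median log2 fold change was −0.01, beside −0.02 over all genes. The log2 fold change was 0.06 for Ifitm7 and 0.02 for Ifitm10, the other Ifitm genes measured. It was −0.01 for Trarg1, which takes part in the traffic of the glucose transporter GLUT4 in fat cells. It was −0.21 for Prrt1 and 0.09 for Syndig1, proteins of synapses, −0.02 for Syndig1l and −0.11 for Tmem91.

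The profile of Ifitm3 over the 4 arrays was compared with that of every other gene, after each gene was centred on its own mean. The measure was the root-mean-square difference over the 4 arrays, on the log2 scale, and the 5 nearest genes are given as a description. As the difference of Ifitm3 between genotypes is large, any gene near it has a large difference too. Vsig4, a complement receptor of tissue macrophages, was nearest, with a root-mean-square difference of 0.19. It was at 6.36 and 6.49 in TREM2-/- AM, against 4.28 and 4.08 in WT AM, where its signal was low. Ptgs2, the inducible cyclooxygenase, followed at 0.21, with 7.75 and 7.78 in TREM2-/- AM, against 5.77 and 5.53 in WT AM. Vsig4 and Ptgs2 shared with Ifitm3 the order of the 4 arrays, with WT replicate 2 lowest and TREM2-/- replicate 2 highest.

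Adgre4, an adhesion receptor of the F4/80 family that lies on chromosome 17 as does Trem2, was at a root-mean-square difference of 0.29. It was at 11.43 and 11.51 in TREM2-/- AM, against 9.39 and 9.41 in WT AM. Ms4a4a, a tetraspan protein of macrophages, was at 0.30, with 7.35 and 7.45 in TREM2-/- AM, against 5.73 and 5.51 in WT AM. Pf4, a chemokine of platelets and of some macrophages, was at 0.32, with 7.19 and 7.49 in TREM2-/- AM, against 5.30 and 5.42 in WT AM. Ms4a4a shared the order of the arrays with Ifitm3, and Adgre4 and Pf4 had WT replicate 1 lowest. Of the 5 genes, Pf4 had the widest gap between the TREM2-/- arrays, and none of them had a gap between the WT arrays as wide as that of Ifitm3.

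**Figure D3:**
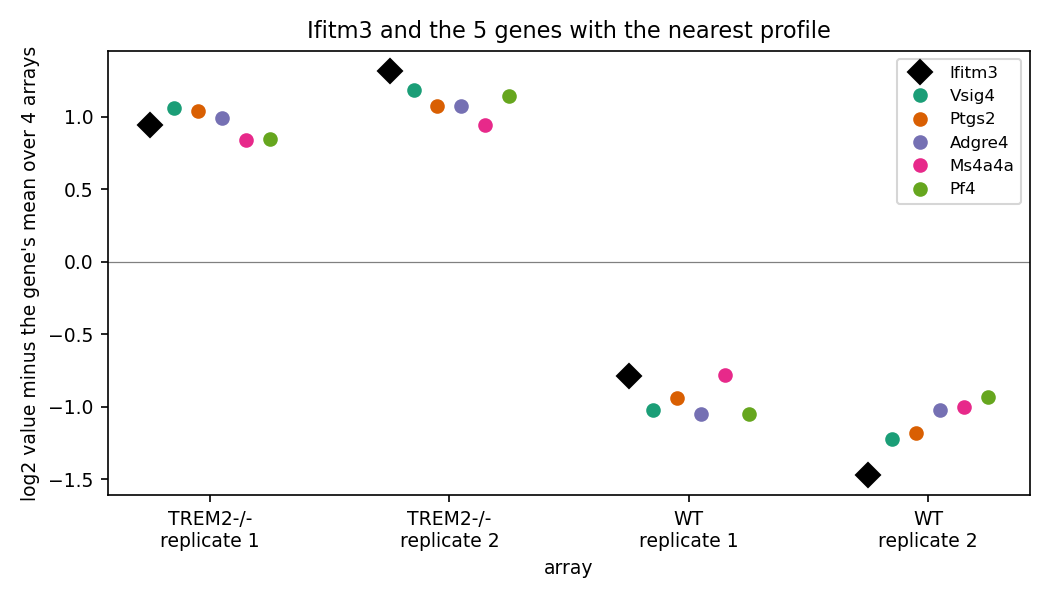
Log2 expression minus the gene's own mean over the 4 arrays, for Ifitm3 (black diamonds) and the 5 genes with the smallest root-mean-square difference to it (0.19 to 0.32), on each array. All 6 genes lie above 0 on both TREM2-/- arrays and below 0 on both WT arrays, and Ifitm3 is the highest on TREM2-/- replicate 2 and the lowest on WT replicate 2.

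Since Ifitm3 is a target of interferon, other genes of that pathway were set beside it. Of 29 measured interferon-stimulated genes, 0 were called by limma in either direction, with 10 at an unadjusted p below 0.05 (34.5%, beside 11.5% of all genes), 2 called higher by SAM and 4 with an intensity trend and robust variance. Their median log2 fold change was 0.13, and 22 of the 29 were above 0, beside 8512 of all 19946 genes. The arrays did not overlap for 16 of the 29 with TREM2-/- AM higher and for 2 with TREM2-/- AM lower, beside 17.4% and 25.4% of all genes. The largest was that of Ifit1, an antiviral RNA-binding protein, at 0.63 (adjusted p = 0.0868 from limma), with arrays that did not overlap, and SAM called it. Rtp4, a transmembrane protein induced by type I interferon, was at 0.51 (adjusted p = 0.122 from limma) and was the other gene that SAM called. The intensity trend added Trim30a (0.34) and Parp14 (0.30) to these.

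The remaining genes of that list which are most used as readouts of interferon lay nearer 0. The log2 fold change was 0.00 for Ifit3 and −0.03 for Mx1, an antiviral GTPase, both with overlapping arrays. It was 0.26 for Oasl2, whose arrays did not overlap, and 0.23 for Rsad2, which encodes viperin and whose arrays overlapped. It was 0.11 for Irf7, a transcription factor that amplifies the type I response. It was −0.13 for Usp18, which restrains interferon signalling, and −0.12 for Ifi27l2a. Isg15 was not among the genes with a probe set of their own. The difference of Ifitm3, at 2.26, lay above the highest of the 29, at 0.63. As Ifitm3 was known to differ when the family was chosen, nothing is read from this.

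Genes induced mainly by interferon-gamma included 2 of 12 measured that limma called higher, both guanylate-binding proteins, and 0 called lower. Over all genes 0.431% were called higher and 0.135% lower. Gbp5 was at 5.993 and 6.001 in TREM2-/- AM, against 5.204 and 5.001 in WT AM (a limma log2 fold change of 0.89 with a standard error of 0.09, adjusted p = 0.0197). Gbp3 was at 7.90 and 7.91 in TREM2-/- AM, against 7.32 and 7.10 in WT AM (0.70 with a standard error of 0.09, adjusted p = 0.0485 by limma). For both genes the TREM2-/- arrays lay close together and above both WT arrays. Gbp3 lost its call without any 1 of the 4 arrays, and Gbp5 without any 1 array other than WT replicate 1. The median of the 12 was 0.14, with 5 at an unadjusted p below 0.05 (41.7%, beside 11.5% of all genes) and 5 called higher with the intensity trend. The arrays did not overlap for 8 of the 12, all with TREM2-/- AM higher, beside 17.4% of all genes in that direction. Cxcl9, a chemokine that attracts T cells, was at 0.63 (adjusted p = 0.24 from limma) with arrays that did not overlap, and SAM added Ciita, the master activator of MHC class II genes (0.44, adjusted p = 0.121 from limma).

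The interferons, their receptors and their signalling proteins showed 0 calls among 23 measured by limma, with 3 at an unadjusted p below 0.05, 0 by SAM and 2 with an intensity trend and robust variance (Jak2 and Irf1). Their median log2 fold change was 0.06. Among ligands, Ifnb1 had low signal in both genotypes and a log2 fold change of 0.07, and that of Ifng was −0.04. Among receptor chains it was 0.11 for Ifnar1, 0.15 for Ifnar2, 0.15 for Ifngr1 and −0.03 for Ifngr2. The kinases Jak1 and Tyk2 were at 0.05 and −0.01, and the transcription factors Stat2 and Irf9 at 0.06 and 0.05. Irf1 was at 0.32 with arrays that did not overlap, and the inhibitor Socs1 was at −0.12.

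Host proteins that restrict viruses at membranes, as IFITM3 does, had 0 calls among 8 by limma, with 1 at an unadjusted p below 0.05, 0 by SAM and 1 with an intensity trend and robust variance. Ch25h, the enzyme that makes 25-hydroxycholesterol, had the highest log2 fold change at 0.32. Bst2, which encodes tetherin, was at −0.03 and Ly6e at 0.06. Zmpste24, a membrane protease that acts together with IFITM proteins, was at −0.01. Enzymes and partners known to act on IFITM proteins gave 0 calls among 14 by limma, with 2 at an unadjusted p below 0.05, 0 by SAM and 0 with an intensity trend and robust variance. Nedd4, the ubiquitin ligase that leads IFITM3 to degradation, was at 0.34 (adjusted p = 0.199 from limma). Setd7, a methyltransferase of IFITM3, was at 0.14, Zdhhc20, a palmitoyltransferase, at 0.04 and Vapa, a binding partner, at −0.01.

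**Figure D4:**
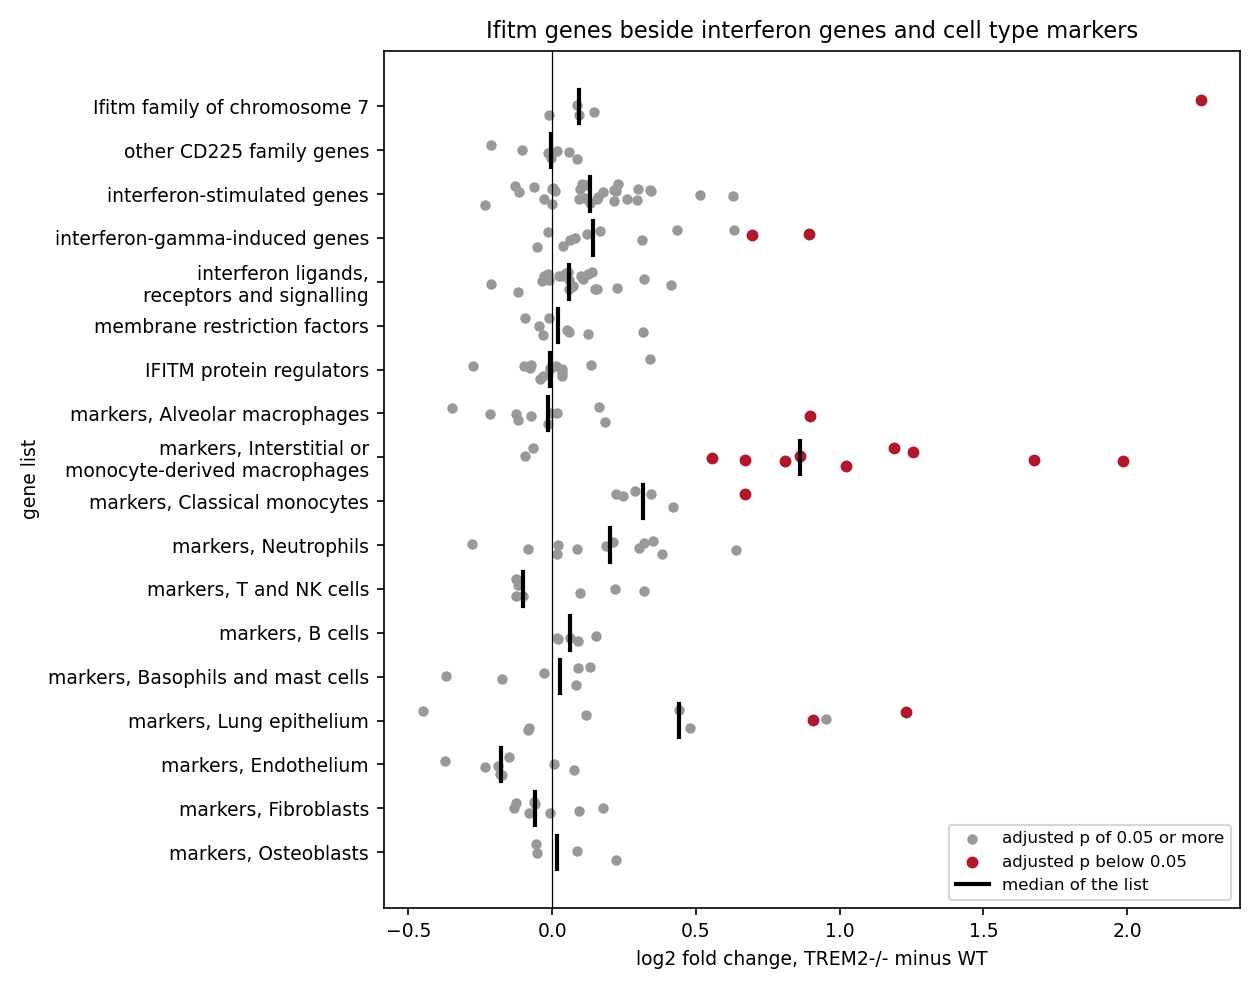
Log2 fold change (TREM2-/- minus WT) of each measured gene in the Ifitm family, in 6 other lists of the pathway and in 11 lists of cell type markers, with a black bar at the median of each list and red points where the adjusted p of limma was below 0.05. Ifitm3 stands alone at 2.26 in the top row, the interferon-stimulated genes reach 0.63, and the markers of interstitial or monocyte-derived macrophages have their median at 0.86.

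Markers of cell types were set beside Ifitm3, and the lists differed in whether and how far they moved between the genotypes. Defining markers of AM were high in both genotypes, with mean log2 values of 11.13 in TREM2-/- AM and 11.34 in WT AM for Siglecf. Marco was at 12.38 in TREM2-/- AM and 12.20 in WT AM, and Itgax at 12.72 in TREM2-/- AM and 12.84 in WT AM. Of 11 measured AM markers limma called 1 higher, Car4 (0.90, a call kept only without WT replicate 2 among the fits with 1 array left out), and 0 lower. The intensity trend called 3 higher and 2 lower, and 4 were at an unadjusted p below 0.05 (36.4%, beside 11.5% of all genes). The arrays did not overlap for 3 with TREM2-/- AM higher and for 5 with TREM2-/- AM lower, beside 17.4% and 25.4% of all genes. The 5 were Siglecf, Itgax, Fabp5, Krt79 and Plet1. The summed linear signal of the AM markers was 35030 to 36180 on the TREM2-/- arrays and 35440 to 35840 on the WT arrays. Of 11 markers for interstitial or monocyte-derived macrophages 9 were called higher and 0 lower, beside 0.431% and 0.135% of all genes. The 2 not called were Folr2 (−0.07) and Lyve1 (−0.09), and for Lyve1 both TREM2-/- arrays lay below both WT arrays. The summed linear signal of the 11 was 12590 to 12840 on the TREM2-/- arrays, against 6228 to 6544 on the WT arrays, and their median log2 fold change was 0.86. The defining 3 were Apoe (1.67), C1qa (1.19) and Cx3cr1 (0.67), of which Cx3cr1 lost its call without any 1 array and C1qa without any 1 other than WT replicate 1. In bulk RNA more cells of a type and more RNA per cell cannot be told apart.

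Among classical monocyte markers 1 of 6 was called higher and 0 lower, beside 0.431% and 0.135% of all genes. It was F13a1 (0.67), a coagulation factor, and it lost its call without any 1 array. All 6 were above 0, with 4 at an unadjusted p below 0.05 (66.7%, beside 11.5% of all genes). The arrays did not overlap for 4 of the 6, all with TREM2-/- AM higher, beside 17.4% of all genes in that direction. The intensity trend called 3 higher and 0 lower. The summed signal of the 6 was 4716 to 4868 on the TREM2-/- arrays, against 3390 to 3808 on the WT arrays. Most of this sum came from 1 gene, Fn1, at mean log2 12.03 in TREM2-/- AM and 11.61 in WT AM. The defining marker Plac8 was low. Of 12 neutrophil markers 0 were called by limma, with 5 at an unadjusted p below 0.05, 1 by SAM and 2 with an intensity trend and robust variance. Their sum was 1121 to 1156 on the TREM2-/- arrays, against 950.8 to 986.8 on the WT arrays. The defining markers S100a8 (0.02) and S100a9 (0.09) had overlapping arrays, while those of Csf3r (0.64), also defining, did not overlap. Retnlg, Ngp and Ly6g were low. Of 9 lung epithelial markers 2 were called higher and 0 lower, beside 0.431% and 0.135% of all genes. They were Cldn18 (1.23, lost without TREM2-/- replicate 2) and Scgb1a1 (0.91, lost without any 1 array). Of the 9, 6 were at an unadjusted p below 0.05 (66.7%, beside 11.5% of all genes). The epithelial sum was 1211 to 1273 on the TREM2-/- arrays and 1035 to 1037 on the WT arrays. The epithelial markers did not move one way. The arrays did not overlap for 5 of the 9 with TREM2-/- AM higher and for 3 with TREM2-/- AM lower. Over all genes these shares were 17.4% and 25.4%. The 3 were Cdh1 (−0.45, adjusted p = 0.164 from limma), Epcam (−0.09) and Sftpa1 (−0.08). The intensity trend called 4 epithelial markers higher and 1 lower. Endothelial markers had 0 calls among 8 by limma (1 at an unadjusted p below 0.05, 0 by SAM, and 1 lower with an intensity trend and robust variance). Their sum was lower, 758.2 to 797.6 on the TREM2-/- arrays and 945.6 to 959.0 on the WT arrays. Most of this sum came from Vwf, at mean log2 8.91 in TREM2-/- AM and 9.28 in WT AM. By limma 0 markers were called among 7 of T and NK cells, 5 of B cells, 6 of basophils and mast cells and 8 of fibroblasts, with 1, 0, 1 and 0 at an unadjusted p below 0.05 and 0 by SAM or an intensity trend. The defining markers of basophils and mast cells, Mcpt8, Cpa3 and Fcer1a, were low. Over the 11 marker lists 13 genes were called higher and 0 lower, and 3 to 6 higher with 1 array left out. The counts were 21 higher and 4 lower with the intensity trend, and 0 with all rows as probe sets. The part of any of these cells in the Ifitm3 difference was not tested.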

How the data were processed

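Per the labels and the methods, total RNA of pooled AM was hybridized to Affymetrix gene arrays. The authors normalized the 4 arrays together by RMA, and the deposited log2 values include this step. In the submitters' processing notes, RMA stands without a version beside the build mm9. Scanner intensities were not used here, so background correction could not be varied, and probes shared between close relatives such as the Ifitm genes could add their signal to each other. Of 35557 rows, 21797 carried 1 symbol, 1613 several (0 with a member) and 12147 none in the platform annotation. Of those with 1 symbol 21698 matched RefSeq (GRCm38.p6) by gene identifier. For 999 of 19946 genes the probe set with the highest mean was kept.

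The main test was limma (version 3.58.1, R 4.3.3; lmFit, then eBayes), two-sided, on genotype alone. Its p-values were adjusted by Benjamini-Hochberg across the 19946 genes, and a gene was called at an adjusted p below 0.05. Significance analysis of microarrays (SAM), named in the methods at a false-discovery rate of 5%, was run over all 6 assignments of the arrays as an alternative. The other alternatives are given with the sensitivity of the results. The fit was tested on simulated data. The members and the gene lists (206 entries, 185 measured) were chosen with earlier results of these data known. Genes named are the members, the other CD225 genes, the 5 genes on each side of the cluster, fixed readouts of each list, up to 4 called members of a list, the 5 genes nearest Ifitm3, the defining markers and Trem2. Other list members named were chosen after their values were seen. The precision is limited by the number of arrays. 1 gene of the signalling list is not reported here.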

Additional observations from a re-analysis of the deposited data

How the results depend on the processing

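The log2 fold change of Ifitm3, 2.26, ranged from 2.26 to 2.27 over 11 alternatives and from 1.91 to 2.60 with 1 array left out. Of the 11, only quantile normalization (2.27) and centring on the median (2.26) change the values of Ifitm3, which has 1 probe set. The others alter the variance, the adjustment or the features tested, so they had to return the same fold change. Ifitm3 was called in 9 of the 11 alternatives. Its difference was known when the family was chosen, so nothing is read from this count. The minimum log2 fold change of 1 could not remove its call, and the unadjusted t-test called 782 of all genes higher and 1052 lower. The call of Ifitm3 was lost with the methods' t-test after Benjamini-Hochberg adjustment (2.26), which called 0 of all genes. It was lost as well with all 35557 rows as probe sets (2.26, adjusted p = 0.255 from limma). There the variances of limma and the adjustment were both taken over more features, and the call was lost through the 2 together. It was also lost without either TREM2-/- array, and the members called higher then numbered 0 (0 to 1 over the 4 such fits). The t-test and the fit on all rows likewise gave 0 members called higher. Ifitm1 was at 0.026 after quantile normalization and between −0.12 and 0.10 without 1 array, and Ifitm6 between −0.0014 and 0.18. Their signs are therefore not fixed by these arrays. Ifitm2 stayed between 0.09 and 0.19 and Ifitm5 between 0.02 and 0.16 without 1 array. A filter on a mean of at least 6 leaves no value for Ifitm1 and Ifitm6. Taking each other probe set of Ifitm2 and Ifitm1 in turn was an alternative added after seeing the data.

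Of the 93 genes in the other pathway lists, 2 were called higher. The count was 5 with SAM, 16 with the unadjusted t-test, 0 with the adjusted t-test, 12 with an intensity trend and robust variance, 4 with the filter on the mean, 0 with all rows as probe sets, 0 with a minimum log2 fold change of 1, and 0 to 1 without 1 array. The 13 marker genes called higher became 0 with the adjusted t-test and with all rows. Over all genes, 86 were called higher and 27 lower, against 173 and 19 with SAM, 379 and 290 with the intensity trend, 207 and 150 with the filter, 21 and 2 with all rows, 36 and 6 with the minimum fold change, and 782 and 1052 with the unadjusted t-test.

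Arrays with the same replicate number did not deviate together (r = −0.05). Whether pools of the same number were prepared or run together is not given, and with 2 arrays a genotype this check cannot decide it. With the replicate block Ifitm3 was at 2.26 and still called, and the calls over all genes were 98 higher and 31 lower.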
